A study of Mus musculus with 8 samples.

Results

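The fibroblast growth factor (FGF) genes described here were 10 genes of the mouse heart: the ligand genes Fgf8, Fgf9, Fgf10 and Fgf16, the intracellular family member Fgf12, the receptor genes Fgfr1, Fgfr2, Fgfr3 and Fgfr4, and the receptor-like gene Fgfrl1. They were chosen by name, as the FGF ligands and receptors of the heart, with earlier results of these data known. All 10 were found among the 53465 genes of the table. Polyadenylated RNA of ventricles at embryonic day (E) 9.5 was sequenced in 4 libraries of Nrg-1flox;Tie2-Cre embryos and 4 libraries of wild-type (WT) embryos. In the mutant, the floxed Nrg1 gene is the target of a Cre recombinase driven by Tie2, which acts in endothelial cells, the endocardium among them, and in blood cells derived from them. Nrg1 made by other cells is not a target of this Cre. The labels give no sex, strain or litter. They do not say whether WT embryos carried the floxed allele or the Cre, or how many embryos went into a library. The p-values below therefore measure the spread between these libraries only. The comparison asks whether the genes that supply FGF input differed between genotypes, beside the genes that report the output of the mitogen-activated protein kinase (MAPK) pathway.

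FGF ligands bind receptor tyrosine kinases together with heparan sulfate on the cell surface. The activated receptor recruits the adaptors FRS2, GRB2 and SOS, which switch on Ras, Raf, MEK and the MAP kinase ERK, and ERK activity induces ETS-family transcription factors and feedback inhibitors such as the Sproutys. In the embryonic heart, FGF8 and FGF10 are known from the second heart field and the outflow tract, and FGF9 and FGF16 as ligands that act on the growing myocardium through FGFR1 and FGFR2. NRG1, sent by the endocardium, acts on ERBB2 and ERBB4 of the myocardium, and these receptors use the same Ras to ERK route.

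Total counts ranged from 11852372 to 14360323 per library, and levels are given as counts scaled to library size (CPM), with TMM, a normalisation for library composition. A floor of 3 counts per library equalled 0.203 to 0.254 CPM. Of 14451 genes with enough counts to test, 1245 were called at an adjusted p (false discovery rate) under 0.05 by edgeR's quasi-likelihood test, 739 higher and 506 lower in the mutant. Hemoglobin genes took 1.93 to 6.26% of the mutant counts and 0.671 to 0.799% of the WT counts. Mutant replicate 1 stood apart, with the highest hemoglobin share, and 2523 genes were called without it. That was the most of any fit with 1 library left out, and other such fits called fewer than 1245. Nrg1, the targeted gene, was lower in every mutant library, at 5.17, 4.27, 5.11 and 5.93 CPM against 11.9, 9.38, 9.94 and 11.7 CPM in WT. Its level was 47.7% of WT, a log2 fold change of -1.07 (SE 0.14, adjusted p = 0.0027, edgeR quasi-likelihood test). These counts cover the whole gene, not the deleted exons alone. The 12 cardiomyocyte markers summed to 35941 to 39662 CPM in mutant and 38399 to 40414 CPM in WT libraries, and none of them was called by edgeR or limma-voom. Of these, 2 had an unadjusted p under 0.05 and DESeq2 called both lower: Ttn, at -0.24 in edgeR (adjusted p = 0.0679), and Myh6, at -0.25 (adjusted p = 0.0796). The 8 foregut markers summed to 0.763 to 1.59 CPM in mutant and 0.788 to 7.56 CPM in WT libraries, so the higher sums were in WT. That difference was not tested. The 8 neural and 8 liver or yolk sac markers summed to at most 3.11 and 8.65 CPM in any library.

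Among the 10 FGF genes, 7 had enough counts to test, and Fgf12, Fgf16 and Fgfr4 did not. Of the 7, only Fgf10 was called, and it was lower in the mutant. None was called higher by edgeR, DESeq2 or limma-voom, nor at an unadjusted p under 0.05, where 3 were lower. Across all genes tested, 8.62% were called, with 3.5% called lower and 5.11% called higher. The values of mutant and WT libraries did not overlap for Fgf10 and Fgf9, both lower in the mutant, and 9.45% of all genes tested had this pattern. The median log2 fold change of the 7 was -0.18, against -0.0014 for all genes tested.

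**Figure D1:**
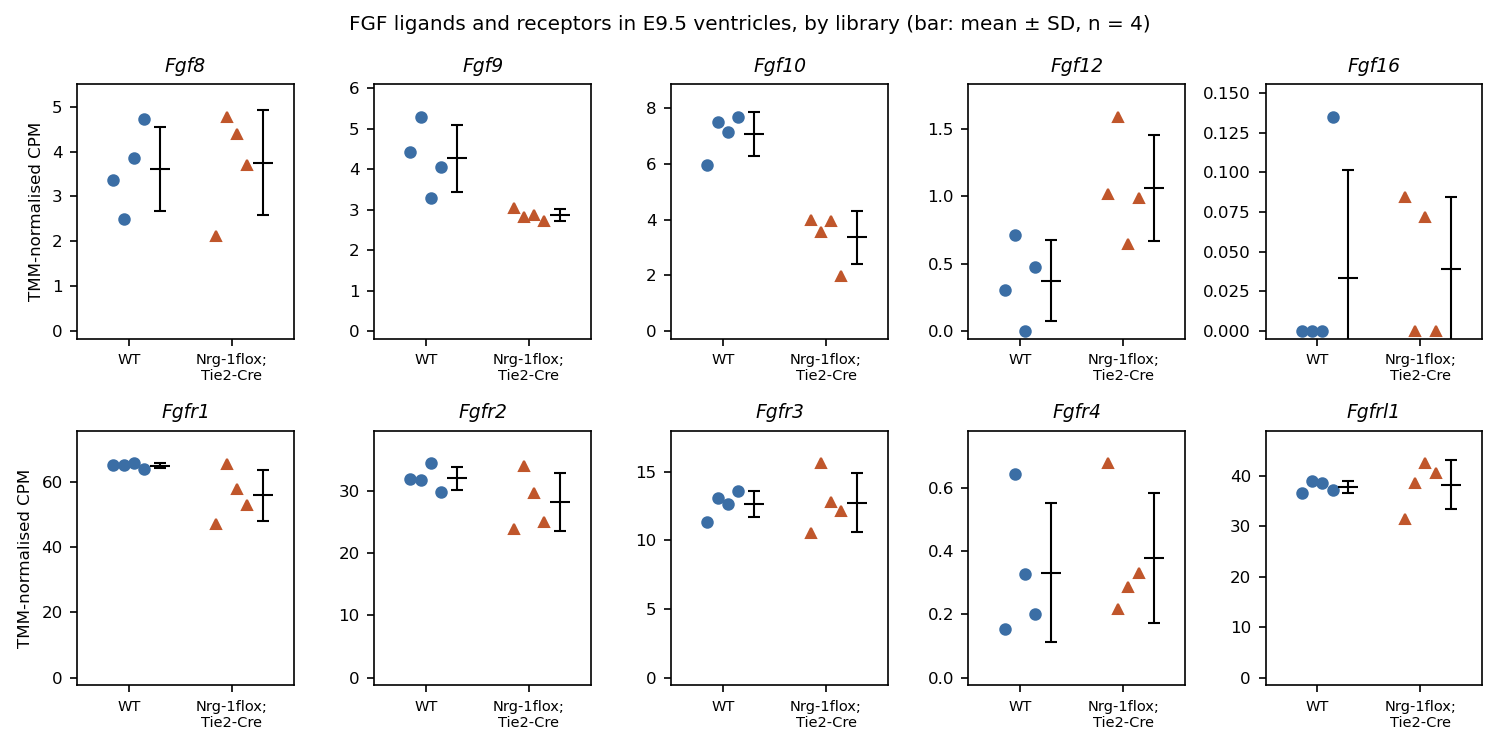
Each panel plots 1 FGF gene in CPM on its own scale from 0, with circles for the 4 WT libraries, triangles for the 4 Nrg-1flox;Tie2-Cre libraries, and a bar for the mean ± SD beside each group (the lower arm for Fgf16 runs past the axis). The 4 mutant values of Fgf10 (1.98 to 3.98 CPM) and of Fgf9 (2.72 to 3.05 CPM) lie below all WT values, and the groups overlap in the other panels for tested genes.

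Fgf10 encodes a secreted ligand that signals mainly through the FGFR2b isoform and is a classical marker of the second heart field. It lies on chromosome 13 of GRCm38 from 118669791 to 118792115 on the plus strand (ENSMUSG00000021732). Fgf10 measured 5.96, 7.52, 7.15 and 7.71 CPM in the WT libraries. In the mutant libraries it measured 3.98, 3.55, 3.96 and 1.98 CPM. Every mutant library was below every WT library, and mutant replicate 4 was the lowest of the 8. The mean was 3.37 ± 0.947 CPM in the mutant and 7.08 ± 0.786 CPM in WT (SD, n = 4 each). Fgf10 fell to 47.7% of WT (95% interval 34.4 to 66.1%), a log2 fold change of -1.07 (SE 0.21, adjusted p = 0.0148, edgeR quasi-likelihood test). These levels rested on 24 to 55 counts per mutant library and 78 to 114 counts per WT library. Leaving out WT replicate 4 ended the call, at -1.03 on the log2 scale and an adjusted p of 0.0542. Without the other libraries in turn it was kept, with log2 values from -1.16 to -0.89, and without mutant replicate 1 it was -1.15. An antisense gene, Gm16263, shares 123 bases or 2.67% of the exonic length of Fgf10, and the use of strand in counting is not given in the sources used here. In bulk tissue such as this, fewer cells that express a gene and less RNA per cell cannot be told apart.

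Fgf9 encodes a ligand of FGFR1c, FGFR2c and FGFR3c, known in the heart from the endocardium and the epicardium. It lies on chromosome 14 from 58070547 to 58112720 on the plus strand (ENSMUSG00000021974). The WT libraries held 4.43, 5.30, 3.29 and 4.06 CPM, and the mutant libraries 3.05, 2.82, 2.88 and 2.72 CPM. All mutant values were below the lowest WT value, by a narrow margin, and they lay closer together than the WT values (SD 0.139 against 0.837 CPM). The log2 fold change was -0.57 (SE 0.18, adjusted p = 0.0771, edgeR quasi-likelihood test), which does not pass the threshold. The interval ran from 51.0 to 88.4% of WT. Fgf9 was not called under any of the 8 other settings tried, with adjusted p-values from 0.0613 to 0.163, or with any library left out.

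The 2 ligand genes whose libraries did not overlap are shown by the 250 bases before their RefSeq start sites, as the sequence next to which their transcription begins. Sequences are from RefSeq on GRCm38.p6, plus strand, 5′ to 3′, and capitals mark a match to a searched motif. Both start sites lie inside the longer gene spans given above. An entry was found for 7 of the 10 genes, with none for Fgf8, Fgf16 and Fgfr1.
Fgf10, chr13:118714449-118714698: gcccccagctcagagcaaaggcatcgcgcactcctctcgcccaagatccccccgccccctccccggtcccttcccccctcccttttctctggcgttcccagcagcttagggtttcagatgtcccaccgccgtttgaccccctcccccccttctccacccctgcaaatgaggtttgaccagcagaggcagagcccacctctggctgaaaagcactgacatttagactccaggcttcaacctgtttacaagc
Fgf9, chr14:58072436-58072685: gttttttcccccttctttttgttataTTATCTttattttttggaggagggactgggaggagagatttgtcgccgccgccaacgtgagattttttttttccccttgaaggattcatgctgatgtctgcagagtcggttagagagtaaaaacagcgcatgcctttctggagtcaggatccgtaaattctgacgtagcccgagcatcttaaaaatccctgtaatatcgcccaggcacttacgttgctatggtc

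Both windows were searched on both strands for 5 motifs of factors that act in the early heart or at start sites, and 32851 mouse promoters of the same length were searched in the same way. The GATA motif AGATAA was found in 9.99% of these promoters. The ETS motif CCGGAA was found in 12.03% of them. The NKX2-5 motif was read as TNAAGTG, where N is any base, and was found in 10.1%. The T-box motif was read as GGTGTGA and was found in 3.33%. The TATA box was read as TATAAA and was found in 12.4%. The Fgf10 window held 0 matches to the 5 motifs. The Fgf9 window held 1, a GATA match on the minus strand that begins at position -224 from the start site. GC content was 61.2% for Fgf10 and 44.8% for Fgf9, against a median of 52.4% over these promoters.

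Fgf8, a ligand that the outflow tract and second heart field require, was not called. It lies on chromosome 19 from 45736798 to 45742915 on the minus strand. It measured 3.36, 2.51, 3.86 and 4.73 CPM in WT and 2.12, 4.78, 4.39 and 3.71 CPM in the mutant. The groups covered the same range, and mutant replicate 1 was the lowest library. The log2 fold change was 0.06 (SE 0.27, adjusted p = 0.923, edgeR quasi-likelihood test). The interval of 68.2 to 159% of WT is wide, so changes inside it were not detectable at 25 to 70 counts per library.

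Fgf16, which encodes a close relative of FGF9 and is known from the perinatal heart, was at or near 0. It lies on chromosome X from 105764279 to 105774939 on the plus strand. It had 1, 0, 1 and 0 counts in the mutant libraries and 0, 0, 0 and 2 counts in the WT libraries. All values were under the floor of 3 counts per library, so no fold change is given. Fgf12 encodes a member of the FGF homologous factors, which stay in the cell, bind voltage-gated sodium channels and do not act through FGF receptors in the usual way. It lies on chromosome 16 from 28160098 to 28753068 on the minus strand. Its counts were 12, 22, 9 and 12 in the mutant and 4, 10, 0 and 7 in WT. The ranges overlapped at mutant replicate 3 and WT replicate 2. The mean level was 1.06 ± 0.392 CPM in the mutant and 0.374 ± 0.301 CPM in WT (SD, n = 4 each; two-sided exact permutation test, p = 0.0571). The smallest p that 70 relabellings of these libraries can give is 0.0286. With no filter on low counts, its log2 difference was 1.45 (SE 0.56, adjusted p = 0.201, edgeR quasi-likelihood test).

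No receptor gene was called in either direction by edgeR, DESeq2 or limma-voom. Fgfr1, an FGF receptor gene of the early myocardium (chromosome 8, 25513654 to 25575718, plus strand), was at 65.2, 65.0, 65.7 and 63.7 CPM in WT and at 47.1, 65.4, 57.8 and 53.0 CPM in the mutant. The WT libraries lay within a narrow band, 3 mutant libraries lay below it, and mutant replicate 2 lay inside it. The log2 fold change was -0.22 (SE 0.09, adjusted p = 0.174, edgeR quasi-likelihood test), with an interval of 74.9 to 99.0% of WT. Without mutant replicate 2, Fgfr1 was called lower, at -0.29 and an adjusted p of 0.0464. Mutant replicate 1, the lowest library for Fgfr1, also had the most hemoglobin, and without it the log2 fold change was -0.14.

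Fgfr2, whose b and c isoforms bind FGF10 and FGF9 respectively, is annotated on chromosome 7 from 130162451 to 133123350 on the minus strand. This annotated span takes in exonic bases that are shared with Ctbp2. Fgfr2 measured 31.8, 31.8, 34.4 and 29.9 CPM in WT and 23.9, 34.0, 29.7 and 25.1 CPM in the mutant. Its groups overlapped, and the log2 fold change was -0.18 (SE 0.11, adjusted p = 0.347, edgeR quasi-likelihood test). The interval was 74.4 to 105% of WT. With 1 library left out it ran from -0.28 without mutant replicate 2 to -0.11 without mutant replicate 1, and it was called in none of these fits. The table counts genes and not isoforms, so the b and c forms were not separated here. Reads of Fgfr2 may also come from Ctbp2, which shares 314 exonic bases on the same strand.

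Fgfr3, best known from growing cartilage, lies on chromosome 5 from 33721674 to 33737068 on the plus strand. It ranged from 11.4 to 13.6 CPM in WT and from 10.5 to 15.6 CPM in the mutant, with a log2 fold change of 0.01 (SE 0.13, adjusted p = 0.970, edgeR quasi-likelihood test). Its interval was 82.6 to 123% of WT. An opposite-strand gene, G630022F23Rik, shares 13.9% of its exonic length. Fgfr4, on chromosome 13 from 55152640 to 55168759 on the plus strand, had 2 to 9 counts per library, a mean of 0.378 ± 0.205 CPM in the mutant and 0.332 ± 0.221 CPM in WT (SD, n = 4 each; two-sided exact permutation test, p = 0.6). Fgfrl1 encodes a membrane protein that binds FGF but lacks the kinase domain of the other receptors, and lies on chromosome 5 from 108692382 to 108706924 on the plus strand. It measured 36.6, 38.9, 38.6 and 37.1 CPM in WT and 31.5, 38.5, 42.5 and 40.6 CPM in the mutant. The mutant libraries lay on both sides of WT, and the log2 fold change was 0.02 (SE 0.09, adjusted p = 0.920, edgeR quasi-likelihood test). Its interval was 88.4 to 116% of WT.

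To compare levels between genes, CPM was divided by the length of the merged exons in kilobases. In WT, Fgfrl1 was the most abundant at 13.6 ± 0.407 CPM per kb (SD, n = 4). Fgfr1 followed at 6.57 ± 0.0835 and Fgfr2 at 3.10 ± 0.181 CPM per kb. Fgf8 came next at 2.68 ± 0.690, then Fgfr3 at 1.77 ± 0.132, Fgf10 at 1.54 ± 0.171 and Fgf9 at 0.918 ± 0.180 CPM per kb. Fgfr4, Fgf12 and Fgf16 lay far lower, at 0.0938, 0.0603 and 0.0205 CPM per kb. The libraries of neighbours in this order overlapped between Fgfr2 and Fgf8, Fgf8 and Fgfr3, Fgfr3 and Fgf10, Fgfr4 and Fgf12, and Fgf12 and Fgf16, so these neighbours are not ordered beyond their spread. Merged exons of all annotated transcripts overstate the length of a gene that uses only some of them.

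**Figure D2:**
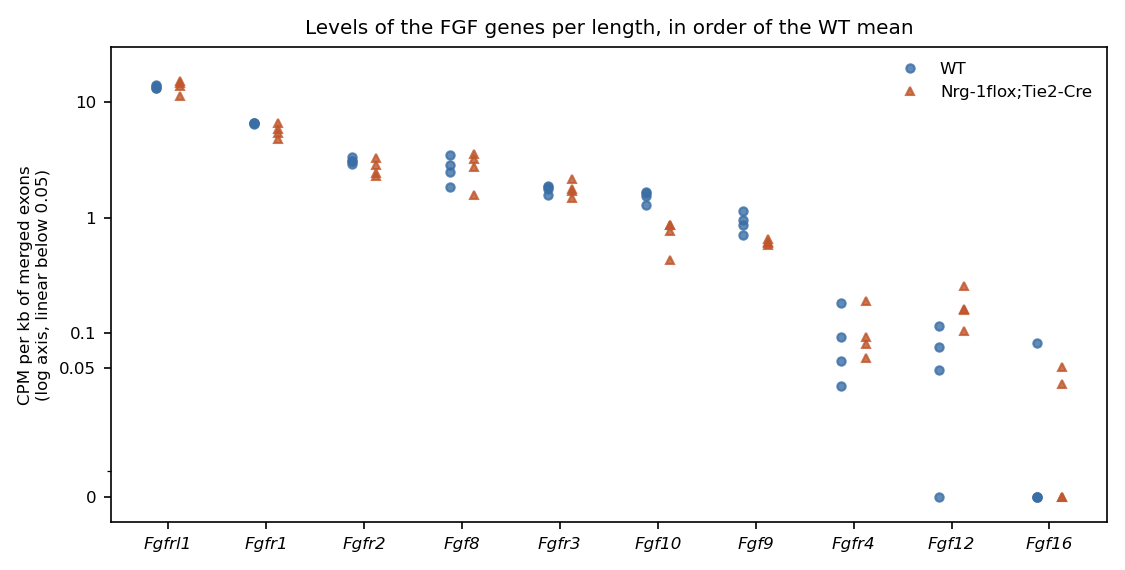
Levels of the 10 FGF genes in CPM per kilobase of merged exons, on a log axis that is linear below 0.05, with circles for WT and triangles for Nrg-1flox;Tie2-Cre libraries. The genes are in order of the WT mean, from Fgfrl1 at 13.6 to Fgf16 at 0.0205 CPM per kb, and the gap between Fgf9 and Fgfr4 is the widest.

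The balance within ligands and within receptors was described in the same libraries. The summed level of Fgf8, Fgf9, Fgf10 and Fgf16 ran from 8.41 to 11.3 CPM in the mutant and from 13.7 to 16.6 CPM in WT. This sum includes the fall of Fgf10 and is given without a test. The summed level of Fgfr1 to Fgfr4 ran from 82.2 to 115 CPM in the mutant and from 107 to 113 CPM in WT, so the receptor sums overlapped. Per length, Fgfr1 made up 54.5 to 56.0% of the 4 receptor genes in the mutant and 56.1 to 58.3% in WT. That share differed by -1.92 percentage points (two-sided exact permutation test, p = 0.0286, the smallest these libraries can give), and by an adjusted p of 0.114 over the 4 receptors (Benjamini-Hochberg). Fgfr3 made up 17.3 ± 0.577% in the mutant and 15.4 ± 1.17% in WT (SD, n = 4; exact permutation p = 0.0571, adjusted p = 0.114). These shares were computed after the gene levels had been seen.

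The level of Fgf10 was also set against other genes within each library, which does not depend on library scaling. The log2 ratio of Fgf10 to its receptor gene Fgfr2 was -2.58, -3.26, -2.91 and -3.66 in the mutant and -2.42, -2.08, -2.27 and -1.96 in WT. No mutant ratio reached a WT ratio (two-sided exact permutation test, p = 0.0286; adjusted p = 0.0762 over 4 ratios, Benjamini-Hochberg). The log2 ratio of Fgf10 to Fgf9 differed by -0.57 and that of Fgf10 to Fgf8 by -1.14 between the group means (exact permutation p = 0.0571 and 0.114, adjusted p = 0.0762 and 0.114). At least 3 of the 4 ratios would have to separate the groups fully for any to pass after adjustment, so the adjusted values are limited by the design. The ratios were chosen with the fall of Fgf10 known. Across the 8 libraries the genes whose log2 levels (CPM plus 0.5) followed Fgf10 most closely were Hdx (Pearson r = 0.994), Pdcl (r = 0.993) and Plekha6 (r = 0.983). Such values describe 8 libraries of 2 genotypes, share the difference between genotypes, and were picked as the highest of all genes tested.

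The rest of the FGF family was compared in the same fit. Of 17 other FGF genes, 7 had enough counts to test, and none was called higher or lower by edgeR, where 8.62% of all genes tested were called. At an unadjusted p under 0.05, 2 were higher and 1 lower, and DESeq2 called 2 and limma-voom 1 higher. Fgf18, a ligand of the same subfamily as Fgf8, measured 1.53, 2.24, 1.22 and 1.40 CPM in the mutant and 0.993, 0.358, 0.411 and 0.811 CPM in WT. The groups did not overlap, and the log2 fold change was 1.297 (SE 0.36, adjusted p = 0.0537, edgeR quasi-likelihood test). Fgf11, which encodes a homologous factor like Fgf12, measured 16.3, 6.73, 3.74 and 3.96 CPM in the mutant and 2.98, 2.29, 2.38 and 2.16 CPM in WT. The highest value by far was in mutant replicate 1, and the log2 fold change was 1.64 (SE 0.46, adjusted p = 0.0544). Both genes were called higher without mutant replicate 1, at 1.32 for Fgf18 and 0.97 for Fgf11, and Fgf11 also without mutant replicate 3, at 1.87. Fgf1, which encodes a ligand of all the FGF receptors, was at 4.43, 4.66, 2.63 and 4.53 CPM in WT and 1.61, 2.10, 3.09 and 3.13 CPM in the mutant, with a log2 fold change of -0.71 (SE 0.26, adjusted p = 0.129). Fgf1 and Fgf3 were picked here after their values were seen. Fgf3 had 3 to 5 counts in each WT library and 0 to 2 in each mutant library, too few for the test.

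Few genes between ligand and ERK passed the test. Of 22 co-receptor and heparan sulfate genes, 19 were tested and 1 was called, Ndst2, an enzyme that sulfates heparan chains. At an unadjusted p under 0.05, 2 of the 19 were higher and 3 lower. DESeq2 called 2 higher and 1 lower, and limma-voom called 1 higher. Ndst2 rose from 21.2 ± 0.698 CPM in WT to 26.0 ± 1.26 CPM in the mutant (SD, n = 4), a log2 fold change of 0.30 (SE 0.07, adjusted p = 0.0269, edgeR quasi-likelihood test). Without mutant replicate 3, mutant replicate 4 or any 1 of the WT libraries, that call was lost. Gpc4, a glypican gene, was at 0.24 (SE 0.07, adjusted p = 0.0605). None of 10 adaptor genes was called by edgeR, DESeq2 or limma-voom, and 4 had an unadjusted p under 0.05, 3 lower and 1 higher. The smallest p-values among adaptors belonged to Grb2, at -0.19 (SE 0.07, adjusted p = 0.113), and Ptpn11, which encodes the phosphatase SHP2, at -0.14 (SE 0.06, adjusted p = 0.157). None of 10 genes for Ras, Raf, MEK and ERK was called by any of these tools. Only Map2k2, which encodes MEK2, had an unadjusted p under 0.05 (log2 fold change 0.28, adjusted p = 0.112). Mapk3, which encodes ERK1, was at 0.10 (adjusted p = 0.267), and the log2 fold changes of the 10 lay between -0.09 and 0.28. Together with the other FGF genes, these lists held 59 genes, of which 46 were tested and 1 was called, with a median log2 fold change of 0.01, where 8.62% of all genes tested were called. Without mutant replicate 1, 6 of them were called, and without mutant replicate 2, 2 of them. Leaving out mutant replicate 4 or any WT library left 0.

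Among the genes that report MAPK output, most of those called were lower in the mutant. Of 19 output genes, all tested, 6 fell and 1 rose, with a median log2 fold change of -0.27 and 13 of 19 below 0. Over all genes tested, 3.5% were called lower and 5.11% higher, and 7269 of 14451 were below 0. Spry4, a Sprouty inhibitor that ERK activity induces, was at 17.9, 14.4, 20.6 and 16.5 CPM in WT and 10.005, 6.23, 7.48 and 5.60 CPM in the mutant. It fell by 1.24 on the log2 scale (SE 0.18, adjusted p = 0.0038, edgeR quasi-likelihood test). The ETS factor genes Etv4 and Etv5, widely used as readouts of FGF signalling, were lower in every mutant library. Etv4 was at 14.0, 11.3, 11.8 and 10.9 CPM in WT and 6.44, 4.92, 7.55 and 6.59 CPM in the mutant, a log2 fold change of -0.91 (SE 0.15, adjusted p = 0.0058). Etv5 was at 47.2, 47.7, 56.6 and 45.1 CPM in WT and 26.8, 27.6, 32.2 and 27.9 CPM in the mutant, a log2 fold change of -0.78 (SE 0.09, adjusted p = 0.0018). The 3 other genes that fell were the third ETS factor gene Etv1 (-0.62, adjusted p = 0.0383) and the inhibitor genes Spred1 (-0.45, adjusted p = 0.0100) and Spry2 (-0.41, adjusted p = 0.0361).

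Myc, a growth regulator that many pathways besides ERK induce, was the output gene that rose, from 20.4 ± 0.509 to 47.3 ± 9.18 CPM (SD, n = 4; log2 fold change 1.21, SE 0.13, adjusted p = 0.0016, edgeR quasi-likelihood test). Other output genes were not called. Dusp6, an ERK phosphatase gene, was at -0.34 on the log2 scale (SE 0.11, adjusted p = 0.1005), and the immediate early genes Egr1 and Fos were at -0.05 and 0.52, each highest in mutant replicate 1 (24.2 and 15.8 CPM). Without that library, Egr1 (-0.90, adjusted p = 0.0128) and Dusp6 (-0.45, adjusted p = 0.00719) were called lower. Ier3 was at 74.1 CPM in that library, 7.34 to 16.5 CPM in the other mutant libraries and 4.81 to 8.38 CPM in WT. Its log2 fold change was 2.14 (SE 0.70, adjusted p = 0.0925, edgeR quasi-likelihood test), and it was called higher under 1 of 8 other settings. Dusp6, Egr1, Fos and Ier3 were picked here after their values were seen. Without mutant replicate 1, 11 output genes were called, 10 lower and 1 higher. With any other library left out, 5 were called, 4 lower and 1 higher, the calls of Etv1 and Spry2 being lost.

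**Figure D3:**
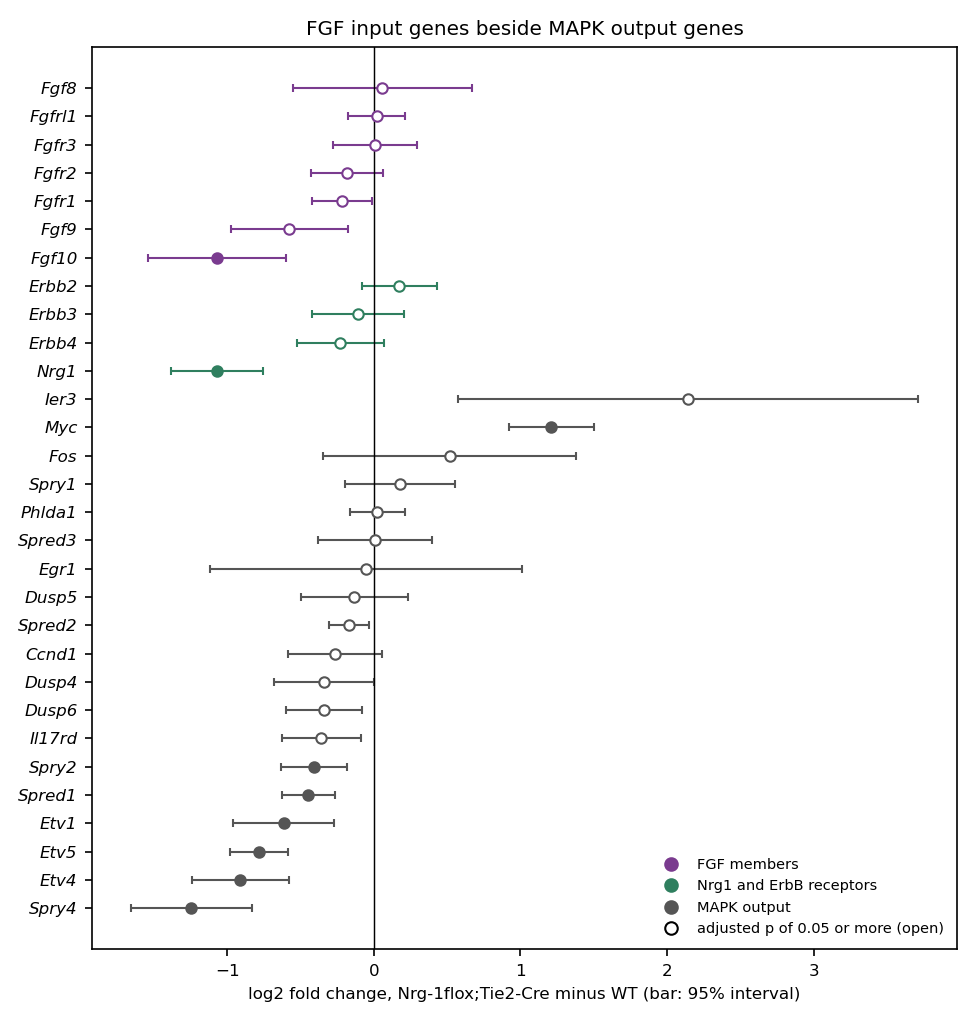
Log2 fold changes of the tested FGF genes, of Nrg1 and the ErbB receptor genes, and of the 19 MAPK output genes, Nrg-1flox;Tie2-Cre minus WT, with 95% intervals as bars and filled points for an adjusted p under 0.05. Fgf10 is the filled point among the FGF genes and Nrg1 among the ErbB genes, both at -1.07, and 6 output genes from Spry2 to Spry4 are filled below 0.

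**Figure D4:**
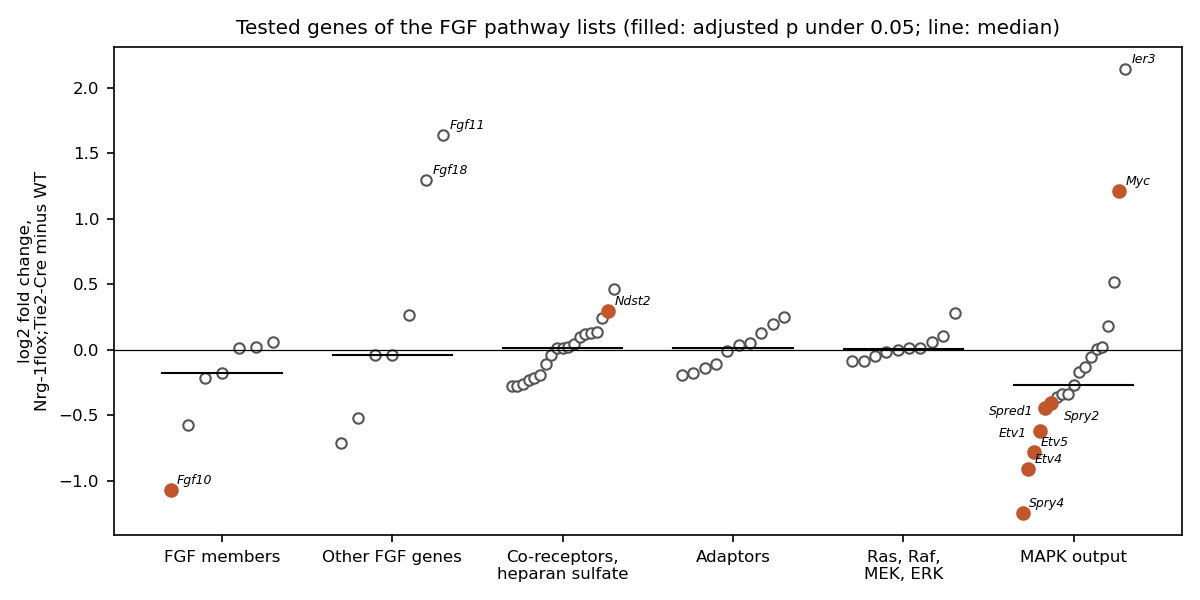
Each point is the log2 fold change, Nrg-1flox;Tie2-Cre minus WT, of 1 tested gene of a list, filled where the adjusted p was under 0.05, with a line at the list's median. The medians of co-receptor, adaptor and Ras to ERK genes lie near 0, the FGF genes at -0.18 and the output genes at -0.27.

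Each of these inputs had a ligand gene that fell. Nrg1 and Fgf10 both stood at 47.7% of WT, with intervals of 38.4 to 59.2% for Nrg1 and 34.4 to 66.1% for Fgf10. A difference between the falls was not tested. Among the receptors of NRG1, Erbb4 was at -0.23 (adjusted p = 0.321), Erbb2 at 0.18 (adjusted p = 0.383) and Erbb3 at -0.11 (adjusted p = 0.689) on the log2 scale, and none was called by edgeR's quasi-likelihood test, by DESeq2 or by limma-voom, or had an unadjusted p under 0.05. Without mutant replicate 1, Erbb4 was called lower (-0.37, adjusted p = 0.018) and Erbb2 higher (0.29, adjusted p = 0.0138). Both falls separate the same 4 mutant from the same 4 WT libraries. Lower Nrg1 and lower Fgf10 therefore cannot be told apart in this design as inputs to the output genes, and RNA levels give neither ligand protein nor ERK activity. Among the mutant libraries, replicate 4 had the lowest Fgf10 (1.98 CPM), the highest Nrg1 (5.93 CPM) and the lowest Spry4 (5.60 CPM). Etv4 was instead lowest in replicate 2 (4.92 CPM) and Etv5 in replicate 1 (26.8 CPM). Whether the output genes followed either ligand gene among the mutant libraries was not tested. Over the 19 output genes, replicate 4 was the lowest mutant library for 9, replicate 3 for 5, replicate 2 for 3 and replicate 1 for 2. The 9 include Ier3, which was not called, and neither Etv4 nor Etv5. The same count was not made over all genes tested, so no reading is given to it.

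Some markers of the second heart field and outflow tract were lower in the mutant. The 10 second heart field or outflow markers summed to 165.8 to 216.1 CPM in the mutant and 251.4 to 265.2 CPM in WT. Of the 9 tested, 4 fell and none rose, where 3.5% of all genes tested were called lower and 5.11% higher. Rspo3, a WNT agonist, fell by 0.88 on the log2 scale (SE 0.15, adjusted p = 0.0073, edgeR quasi-likelihood test), and Hand1, a transcription factor of the left ventricle and outflow tract, by 0.62 (SE 0.13, adjusted p = 0.0169). The guidance ligand gene Sema3c and the WNT ligand gene Wnt11 each fell by 0.44 (adjusted p = 0.0041 and 0.0391). The call of Hand1 was lost without WT replicate 1, 2 or 4 (adjusted p from 0.052 to 0.0575). The call of Wnt11 was lost without mutant replicate 2, mutant replicate 4 or any 1 of the WT libraries. Hand1 and Wnt11 are expressed in the early ventricle or other heart tissue too. Isl1, the defining gene of the second heart field, was at 4.81, 2.94, 9.94 and 8.45 CPM in WT and 4.92, 5.21, 5.68 and 3.79 CPM in the mutant. WT spanned the mutant values on both sides, and the log2 fold change of -0.41 was not called (SE 0.33, adjusted p = 0.491). The other tested markers of this list were not called. Nkx2-6 was at -0.44 on the log2 scale, while Foxc2 was at 0.15 and Eya1 at 0.26. The 4 genes that fell have the highest CPM of the list in WT, so they make up most of its sum. The log2 ratio of Fgf10 to Isl1 differed by -0.84 between the group means (two-sided exact permutation test, p = 0.0571; adjusted p = 0.0762 over the 4 ratios). The part that the amount of outflow tissue in a library had in the Fgf10 value was not tested.

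**Figure D5:**
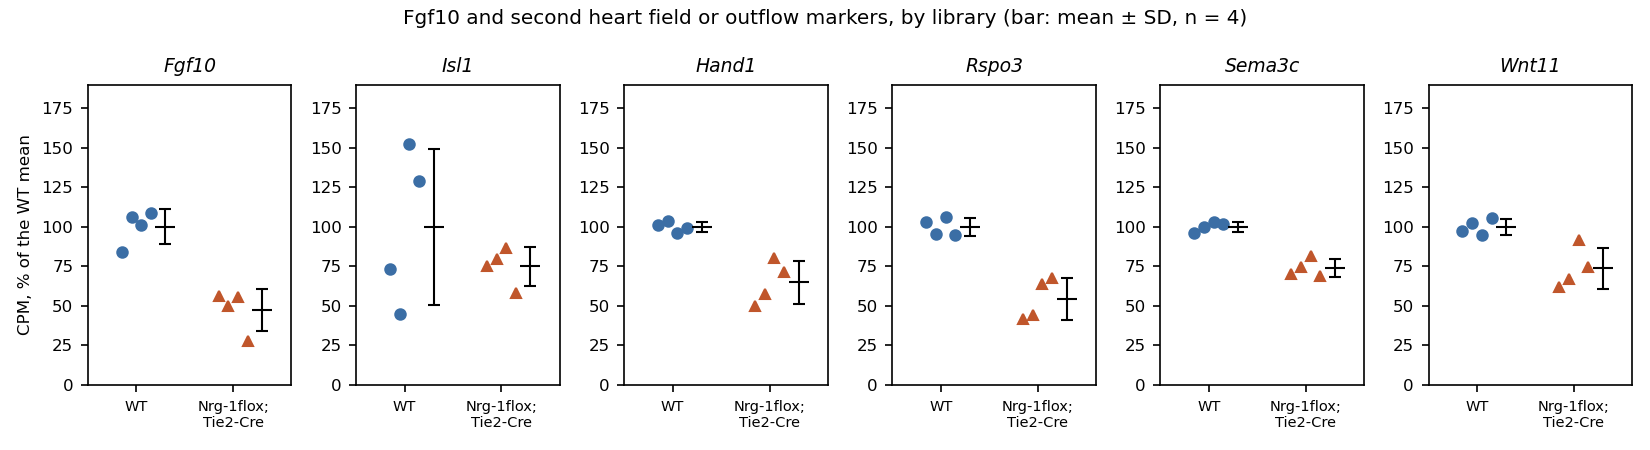
Fgf10, Isl1 and the 4 second heart field or outflow markers that were called, by library, in percent of the WT mean CPM, with circles for WT, triangles for Nrg-1flox;Tie2-Cre and bars for the mean ± SD. The groups are apart for Fgf10, Hand1, Rspo3, Sema3c and Wnt11, and overlap for Isl1, whose WT libraries run from 2.94 to 9.94 CPM.

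Markers of the cells known to make FGF9, those of epicardium and endocardium, were also measured. The 8 epicardial markers summed to 302.5 to 504.8 CPM in the mutant and 202.5 to 267.9 CPM in WT, and 2 of 8 were called higher, where 5.11% of all genes tested were called higher. All 8 had a log2 fold change above 0, with a median of 0.56, and 5 had an unadjusted p under 0.05. Wt1 rose by 0.57 (adjusted p = 0.0126) and Tbx18 by 0.50 (adjusted p = 0.0315) on the log2 scale, by edgeR's quasi-likelihood test. The 10 endothelial or endocardial markers summed to 818.9 to 947.7 CPM in the mutant and 942.0 to 1026 CPM in WT, with 1 of 10 called, where 8.62% of all genes tested were called. At an unadjusted p under 0.05, 5 of these were lower and none higher, and DESeq2 called 2 and limma-voom 1 lower. The receptor gene Tek fell by 0.34 (adjusted p = 0.0310), and Kdr, which encodes a VEGF receptor, was at -0.38 (adjusted p = 0.0681). The call of Tbx18 was lost without any 1 of the WT libraries, and that of Tek also without mutant replicate 3 or 4. The part of these markers in the Fgf9 value was not tested. All 10 erythroid markers rose, with a median log2 fold change of 2.45. The globin genes Hba-a2, Hba-x and Hbb-bh1 rose by 2.77, 2.69 and 2.50, the transcription factor genes Klf1 and Gata1 by 2.28 and 2.26, and the membrane transporter gene Slc4a1 by 2.43 on the log2 scale (adjusted p from 0.00125 to 0.00185, edgeR quasi-likelihood test). Hba-a2 has a near-identical copy, Hba-a1, so its count is uncertain. When hemoglobin and mitochondrial genes were removed before scaling, Fgf10 stayed at -1.06 with an adjusted p of 0.0145.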

How the data were processed

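The values are gene-level expected counts deposited by the authors, made with RSEM and left unscaled for depth and length. The submitters' processing notes name RSEM 1.3.1, cutadapt and the build GRCm38. The aligner and the use of strand are not given in the sources used here. Libraries came from 60-base single reads of a poly(A) kit. Expected counts were rounded to whole numbers, since 15.5 to 16.5% of the values in a library were fractional. Symbols were found for 53274 of 53465 genes, and positions and exon lengths were taken from GENCODE M21. In R 4.3.3, edgeR 4.0.16 was run with the filterByExpr filter (minimum count 10), TMM factors, the quasi-likelihood fit of 4 against 4 libraries, and Benjamini-Hochberg adjustment over 14451 genes (threshold 0.05). Each SE was derived from the log2 fold change and its F statistic. Single values were compared with exact permutation tests over libraries (scipy 1.17.1, Python 3.11.15). The 95% intervals of fold changes come from the edgeR fit and include the spread between libraries, and the floor of 3 counts covers counting error only.

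The 10 genes and the 15 gene lists (166 genes) were chosen with earlier results of these data known. The text names the 10 FGF genes, Nrg1 and its receptors, up to 6 called genes of each other list by smallest p, or at least 2 of smallest p, and the 3 genes most like Fgf10 in pattern. Etv1 was added beyond that limit since it was called, and Fgf1, Fgf3, Dusp6, Egr1, Fos, Ier3, Isl1, Nkx2-6, Foxc2 and Eya1 were named outside the rule, after their values were seen. Libraries of 1 genotype all differed beyond sampling noise, so none was merged. The scripts were tested on simulated data. Alternatives tried were a block for the replicate number, each library left out, upper-quartile and DESeq2 scaling, other filters, leaving out hemoglobin and mitochondrial genes, DESeq2 1.42.0, and limma-voom in limma 3.58.1.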

Additional observations from a re-analysis of the deposited data

Results flagged for a closer look

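For 59 genes named in the text, 7 of 115 groups of 4 libraries held a library far from the other 3, by a gap over range above Dixon's 95% critical value. Chance alone gives about 5.75 of 115. Ptpn11 was highest in WT replicate 2 (gap over range 0.863). Spry2 was highest in mutant replicate 1 (0.871), and Erbb2 was lowest in the same library (0.836). Egr1 (0.8291) and Ier3 (0.863) were highest in mutant replicate 1 too. Pdcl was lowest in mutant replicate 4 (0.851), and Fgf1 was lowest in WT replicate 3 (0.888). None of the 10 FGF genes was among these, with Fgf16 left out since it was under the floor of 3 counts in every library. Fgf3 was left out in the mutant for the same reason.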

How the results depend on the processing

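Counts of 24 to 114 for Fgf10 and 2 to 9 for Fgfr4 per library limit what can be called among ligands and rare receptors. With a replicate block in the fit, 616 genes were called over all (398 higher, 218 lower) against 1245, and 0 FGF genes, since Fgf10 was at -1.09 with an adjusted p of 0.0551, and 0 pathway genes. The block left 5 of 7 output genes called (4 lower, 1 higher), without Etv1 and Spry2. Samples with the same number did not deviate together (mean r = -0.037, 0 of 4 libraries closest to their own number), so the numbers pair nothing known. The pathway lists gave 5 calls with DESeq2, 2 with limma-voom and 2 with at least 10 counts in every sample, against 1. Leaving out 1 library each gave 509 to 2523 genes over all, 0 to 2 FGF genes, 5 to 11 output genes and 0 to 6 pathway genes. The other 7 alternatives gave 1157 to 1759 genes over all and 1 FGF gene, Fgf10. The sign of 6 values not called in the full comparison turned when 1 library was left out: Fgf8 ran from -0.085 to 0.25, Fgfr3 from -0.093 to 0.093, Fgfrl1 from -0.035 to 0.10, Egr1 from -0.90 to 0.22, Fos from -0.052 to 0.74 and the neural crest marker Sox10 from -0.097 to 0.44. Fgfr3 was -0.0046 with upper-quartile scaling. The cause of these shifts was not tested.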
